A study of Enchytraeus crypticus with 54 samples.

Results

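Worms exposed to copper nanowires (Cu-NWires) were compared with worms exposed to copper nitrate (CuNO3), a soluble salt, after 3 days in soil. The comparison was made on 12 of the 54 arrays of the series, chosen by their sample titles, with 6 arrays of wires and 6 of salt. Each form was present at 2 effect levels with 3 arrays each. These were the EC20 and EC50, the concentrations that lower reproduction by 20% and by 50%. The salt and the wires were therefore matched by their effect on reproduction and not by copper mass, and the form of copper and its mass in the soil cannot be told apart here. Each array held RNA of a pool of 20 whole adult *Enchytraeus crypticus* with a well developed clitellum, kept without food in natural soil from the Hygum site in Denmark. The series gives the 3 arrays of a group as biological replicates. The reference groups were worms in soil of the uncontaminated control area of the same site for 3 days (3 arrays) and 7 days (3 arrays), and the same wire and salt treatments at 7 days (12 arrays). The species has no labelled strain or age, and whole bodies were extracted, so that a change in the share of a tissue and a change of RNA within its cells cannot be told apart.

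*E. crypticus* is a small oligochaete worm of soils, used in standard toxicity tests that count its offspring. Copper is an essential metal, bound in cells by chaperones and metallothioneins, and in excess it damages proteins and membranes through redox reactions. A dissolved salt brings copper ions into the soil solution at once, whereas metallic wires release ions as their surface oxidises. The files name each of the 43750 non-control probes by a contig or a single sequencing read of the array design and give no gene names, so the probes below are described by level and pattern and not by function. No name occurred on more than 1 probe.

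The probes tested were the 19499 (44.57% of 43750) with a signal positive and significant against the background on all 54 arrays. Levels are log2 signals minus the median of the array, so 0 is the median probe and a difference of 1 is a doubling. Over the 54 arrays the percentage of non-control probes well above background ranged from 38.2% to 66.5%, no non-control spot was saturated, and the median SD of a probe between arrays of a group was 0.46. In the 4 groups compared here it was 0.42. With 3 arrays in a group, the number of arrays limits the precision.

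Wires and salt differed in many probes at 3 days. Of the 19499 probes, 5814 (29.8%) passed limma at 0.05 after Benjamini-Hochberg adjustment for the mean of the differences within EC20 and within EC50. Of these, 1972 (10.1% of the probes tested) were higher and 3842 (19.7%) were lower with wires than with salt. Their median absolute difference was 0.99, a fold of 1.99, beside a median standard error of 0.26 over all probes. More than 2-fold differences were found for 927 of the higher and 1952 of the lower probes, and more than 4-fold differences for 120 and 302. After median subtraction the levels on the 6 wire arrays and the 6 salt arrays did not overlap for 2294 probes (11.8%). Among these, 747 (3.83%) were higher and 1547 (7.93%) lower with wires. The called probes among them were 687 higher and 1474 lower.

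By the median correlation the arrays of a form resembled each other more than those of the other form, although the ranges overlapped. The median Pearson correlation over the 19499 probes was 0.971 between 2 wire arrays (15 pairs), 0.974 between 2 salt arrays (15 pairs) and 0.942 between a wire and a salt array (36 pairs). In the same order the ranges were 0.927 to 0.980, 0.961 to 0.979 and 0.873 to 0.974. In a split of the variation of each probe over the 12 arrays, the form took a median share of 26.2%, the effect level 2.7%, their interaction 2.7% and the spread between replicates 58.1%.

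The direction of the calls depended on the signal of the probe. The probes were split into 5 classes of equal size by mean log2 signal over the 54 arrays. In the dimmest class 1384 of 3899 probes were called lower and 52 higher, with a median difference of -0.61. In the next class 899 were lower and 298 higher, with a median of -0.25. The middle class was nearly even with 592 lower and 566 higher probes and a median of -0.01. In the fourth class more probes were higher (659) than lower (426), and in the brightest class 397 were higher and 541 lower. These directions hold for median subtraction. Without scaling the median differences of the classes were -0.17, 0.20, 0.43, 0.49 and 0.36 from the dimmest to the brightest. Probes of the dimmest class were measured close to the background, as 0.744% of them were well above it on all 54 arrays, compared with 98.8% in the fourth class. Contig-named and read-named probes did not differ in this respect, with 10.4% of 9143 and 9.86% of 10356 called higher, and 19.8% and 19.6% called lower.

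**Figure D1:**
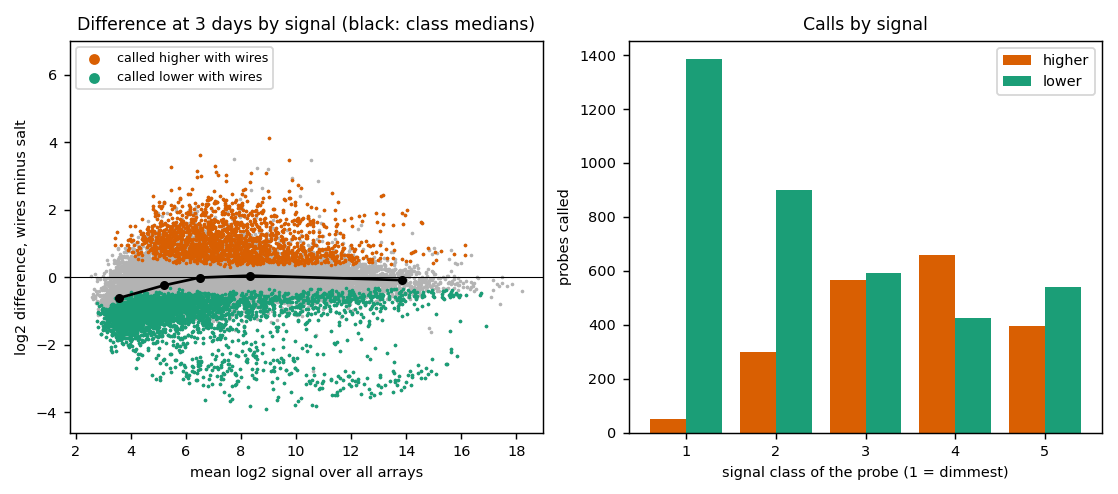
The left panel plots the log2 difference of each of 19499 probes (wires minus salt, 3 days) against its mean log2 signal over 54 arrays, with probes called higher in orange, called lower in green, other probes in grey and the class medians as black points. The right panel gives the probes called in each of 5 signal classes, from 1384 lower and 52 higher in the dimmest to 541 lower and 397 higher in the brightest.

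Array signal distributions were compared between the forms as well, and none of 5 measures fell under 0.05 after adjustment in exact permutation tests. Before scaling, the median log2 signal of the 19499 probes was 6.41 to 7.16 on the wire arrays (median 6.68) and 5.98 to 6.47 on the salt arrays (median 6.25). The mean difference was 0.44, with p = 0.01 in a two-sided exact permutation test within effect levels, in which 400 arrangements allow a smallest p of 0.005 (0.05 after Benjamini-Hochberg adjustment over 5 array measures). The interquartile range of the log2 signals was 3.91 to 4.31 with wires and 3.67 to 4.12 with salt (difference 0.31, exact permutation p = 0.03, adjusted 0.075). The percentage of probes well above background was 45% to 52.8% with wires and 45.6% to 57% with salt (difference -1.78, exact permutation p = 0.44). The E1A spike-in transcripts, synthetic RNAs added to each sample, had a mean log2 signal of 12.73 to 14.46 with wires and 13.6 to 14.38 with salt (difference -0.41, exact permutation p = 0.195, adjusted 0.244). Relative to the spike-ins the array median was 0.85 higher with wires (exact permutation p = 0.045, adjusted 0.075). The part of these array differences in the calls was not tested.

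How the arrays were scaled decided how many probes were called and in which direction. Subtraction of the median left a median difference of -0.16 over all probes, and 33.9% of the calls were higher with wires. Quantile normalization gave 4806 calls of which 49.6% were higher. On the scale of the spike-ins there were 3893 calls, 91.5% of them higher, with a median difference of 0.68. Condition-decomposition methods, which set the groups on probes found not to vary between conditions, gave 12639 calls (standard vectors, SVCD) and 12252 calls (medians, MedianCD), with 97.6% and 97.8% higher and median differences of 0.78 and 0.76. The SVCD search started from median offsets ended at 6066 calls with 67.6% higher. Without any scaling 3864 probes were called, 77% of them higher. Probes whose wire and salt arrays did not overlap numbered 747 higher and 1547 lower after median subtraction. Their counts were 972 and 1096 after quantile normalization, 7756 and 19 after SVCD and 7417 and 12 after MedianCD. With spike-ins they were 1518 and 194, and without scaling 2095 and 302.

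The calls of some probes did not depend on this choice. Under all of 8 scalings, 1724 probes were called higher, which is 87.4% of the 1972, and 220 were called lower, which is 5.73% of the 3842. These shares restate the offsets, since a scaling by a constant moves every probe alike and all but 1 of the other scalings raised the median difference of all probes. The 1724 probes had a median difference of 1.01 (quartiles 0.73 and 1.40). The 220 probes had a median of -2.88 (quartiles -3.13 and -2.49), a size that the rule itself demands, because SVCD raised the median difference from -0.16 to 0.78. At 3 days, relative to the control and after median subtraction, the median of these 220 probes was -2.11 with wires and 0.70 with salt. That of the 1724 probes was 0.86 with wires and -0.13 with salt. Both lists were chosen on these wire and salt arrays, so the distance between the forms restates the choice.

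**Figure D2:**
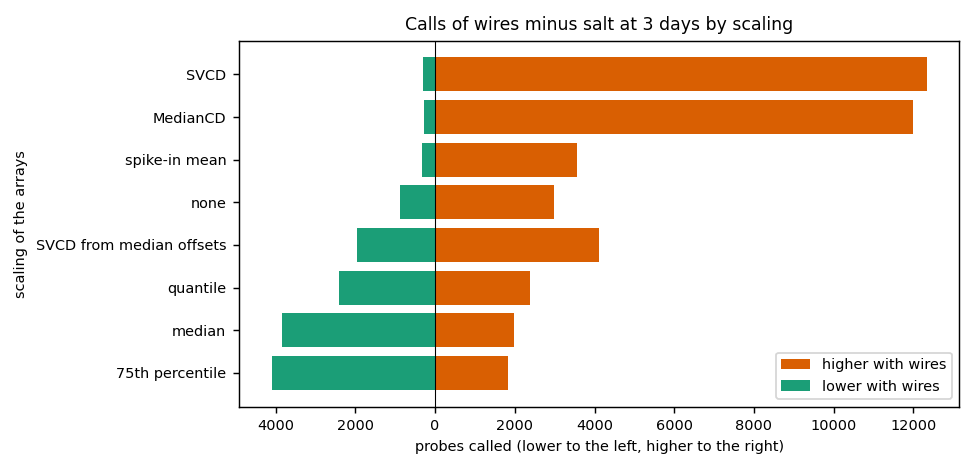
Probes called in the comparison of wires with salt at 3 days under 8 scalings of the arrays, ordered by the median difference of all probes, with lower calls drawn to the left and higher calls to the right on a linear axis. Calls run from 1831 higher and 4101 lower after 75th percentile scaling to 12332 higher and 307 lower after SVCD.

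The probes with the largest differences among those whose arrays did not overlap are given here on single arrays. Probe CUST_24211_PI427420766_b, designed on read GYUW2K401DLQ92, was the largest increase. Its log2 level with wires was 4.52, 1.77 and 5.21 at EC20 and 5.47, 5.58 and 5.43 at EC50. With salt it was 0.70, 1.27 and 0.73 at EC20 and -0.39, -0.12 and 1.14 at EC50. All wire arrays were above all salt arrays, and replicate 2 of wires EC20 lay far below the other 5. The difference was 4.11 ± 0.90 (log2, standard error), a fold of 17.3, with an adjusted p of 0.00191 in limma. The control arrays at 3 days were at 0.19, 0.61 and 0.37, within the range of the salt. Probe CUST_50327_PI427420766_b, designed on read GYUW2K401EBVTP, had levels of 4.96, 4.71 and 5.46 (EC20) and 4.77, 6 and 5.19 (EC50) with wires. With salt the levels were 2.92, 2.52 and 1.10 (EC20) and 2.33, 0.78 and 0.67 (EC50). The difference was 3.46 ± 0.49, a fold of 11.02, with an adjusted p of 8.34e-05 in limma. Here the control arrays, at 3.45, 3.21 and 3.05, lay between the forms. Wires were 1.94 ± 0.60 above the control (limma adjusted p = 0.0206) and the salt differed from it by -1.52 ± 0.60 (limma adjusted p = 0.306).

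The largest decrease was that of probe CUST_16216_PI427420766_b, designed on contig14757. Its level with wires was -0.16, 2.71 and 2.65 at EC20 and 3.59, 0.63 and -0.16 at EC50. With salt it was 4.17, 6.92 and 4.79 at EC20 and 6.01, 7.00 and 3.83 at EC50. The groups were separated by a narrow gap, between 3.59 and 3.83, and each spread over more than 3 log2 units. The difference was -3.91 ± 1.07 with a limma adjusted p of 0.00735. Probe CUST_10744_PI427420766_b, designed on contig19597, had levels of 1.71, 4.47 and 4.01 (EC20) and 5.08, 2.90 and 1.65 (EC50) with wires, and 6.53, 7.94 and 6.48 (EC20) and 7.69, 8.54 and 5.47 (EC50) with salt. Its difference was -3.81 ± 0.97 with a limma adjusted p of 0.00498. The controls at 3 days lay at 6.41, 3.11 and 4.26 for the former probe and at 8.09, 5.12 and 6.16 for the latter, nearer to the salt than to the wires on average.

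**Figure D3:**
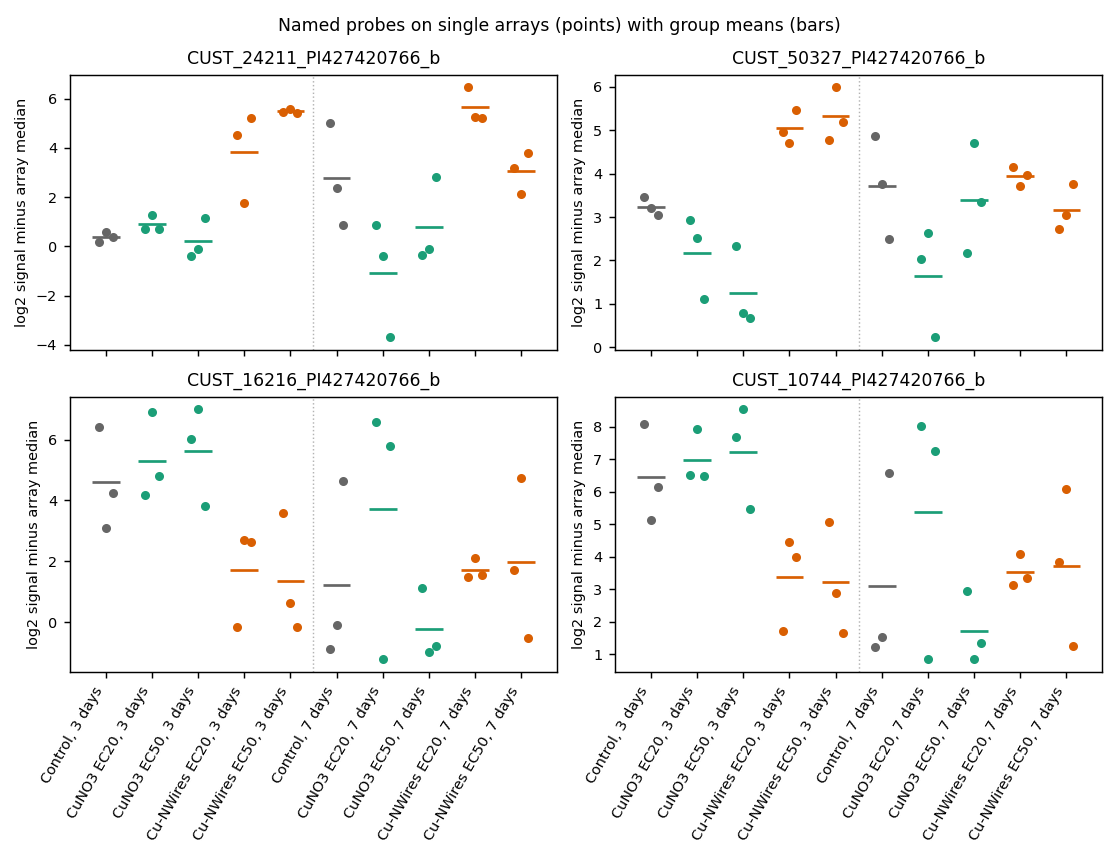
Log2 signal minus array median of the 4 named probes on single arrays (points, 3 in each group) of the control, salt and wires at 3 days (left of the dotted line) and 7 days, with horizontal bars at the group means. At 3 days the wire arrays lie above all salt arrays for the upper 2 probes and below all of them for the lower 2, while at 7 days wires and salt are separated at EC20 for the upper 2 probes and overlap elsewhere.

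Both lower probes varied together between replicate arrays. The correlation of their deviations from the group means over the 54 arrays was 0.987, and 275 other probes followed CUST_16216_PI427420766_b with a correlation above 0.9. Of these, 273 were called lower with wires and 0 higher, and 162 had arrays that did not overlap between the forms. Over all probes 19.7% were called lower, 10.1% higher and 7.93% lower without overlap. The set was looked for after its values were seen and is a description. It was gathered around a probe chosen for its decrease on these arrays and varied together with it. Its calls, lack of overlap and levels therefore follow that choice, and its members are no separate evidence of a difference. No probe followed either of the 2 higher probes to that degree (largest correlations 0.843 and 0.759). The set of 276 was bright, with a median log2 signal of 9.26 compared with 6.44 over all probes, and 87.3% of its probes were well above background on all 54 arrays. It varied between replicates with a median SD of 1.44, compared with 0.46 over all probes. The median level of the set was 3.72, 5.91 and 4.15 with salt EC20, and 4.88, 6.21 and 3.84 with salt EC50. With wires it was 0.87, 2.99 and 2.78 at EC20, and 3.61, 1.63 and 1.22 at EC50. The control at 3 days was at 5.14, 2.97 and 3.63. Every wire array lay below every salt array, and the control reached into the range of the wires. The set held 160 of the 220 probes called lower under all scalings (72.7%).

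The forms were next compared within each effect level. At EC20 alone 381 probes (1.95%) were called, 60 higher (0.308%) and 321 lower (1.65%). At EC50 alone 1513 probes (7.76%) were called, 517 higher (2.65%) and 996 lower (5.11%). The directions depended on the scaling, with 21 higher and 24 lower at EC20 and 621 and 615 at EC50 after quantile normalization, and 9285 and 55 at EC20 and 9842 and 83 at EC50 after SVCD. The 2 differences, which share no arrays, had a Pearson correlation of 0.791 and a Spearman correlation of 0.737 across the 19499 probes, which are not independent. Of the 60 probes called higher at EC20, 28 (46.7%) were called higher at EC50 (5.42% of the 517), and of the 321 lower probes 93 (29%) were called lower (9.34% of the 996), with 0 called in opposite directions. The interaction of form and effect level gave 0 calls in limma, with 617 probes at an unadjusted p under 0.05. A difference between the effect levels was thus not detectable with 3 arrays in a group, and its median standard error was 0.53 for a probe. The counts for a single level rested on single arrays. At EC20 there were 0 calls without replicate 1 of the wires and 1303 without its replicate 2, and 15, 667 and 2 calls without replicates 1, 2 and 3 of the salt. At EC50 there were 34 and 75 calls without replicates 2 and 3 of the wires, and 564 and 70 without replicates 1 and 2 of the salt. For both levels together the count was 3593 without replicate 1 of wires EC20 and between 3966 and 6395 without any other of the 12 arrays.

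Each form was then set against the control at 3 days. Wires differed from the control in 3997 probes (20.5%), 1717 higher (8.81%) and 2280 lower (11.7%). The split was 1934 higher and 1505 lower after quantile normalization, 9499 and 206 after SVCD and 4070 and 65 with spike-ins. The salt had 0 calls in limma, with 2355 probes at an unadjusted p under 0.05 and a lowest adjusted p of 0.0537. Both comparisons share the control arrays, and each shares 6 arrays with the comparison of the forms. The 1972 higher probes had a median difference from the control of 0.85 with wires and -0.12 with salt, and the 3842 lower probes had -0.90 and 0.14. Over all probes these medians were -0.12 and 0.06. The lists were chosen on the same wire and salt arrays, so the distance between the forms in them restates the choice. The count of 3997 was 1490, 2617 and 1621 without replicates 1, 2 and 3 of the control.

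At 7 days fewer probes were called. Of the 19499 probes, 661 (3.39%) were called at 7 days, 371 higher and 290 lower with wires (1087 and 300 after SVCD, 3 and 406 with spike-ins). The differences at 3 and 7 days, which share no arrays, had a Pearson correlation of 0.16 across probes (Spearman 0.22). Of the 1972 probes higher at 3 days, 98 (4.97%) were higher and 24 (1.22%) were lower at 7 days, compared with 1.9% and 1.49% of all probes. The 98 were 26.4% of the 371, compared with 10.1% of all probes higher at 3 days. Of the 3842 lower probes, 25 (0.651%) were lower and 3 higher at 7 days. The median difference at 7 days was 0.21 for the higher list and -0.08 for the lower list. The change of the difference from 3 to 7 days was called for 897 probes (4.6%), upwards for 618 (3.17%) and downwards for 279 (1.43%). The split turned to 353 upwards and 370 downwards after quantile normalization, 81 and 8075 after SVCD and 14 and 1958 with spike-ins. Among them were 528 of the lower and 189 of the higher probes, all narrowing or reversing a difference that had chosen the probe on the same arrays at 3 days, so this direction was set by the choice. The named probes differed in this respect. CUST_24211_PI427420766_b kept a difference of 4.49 ± 0.90 at 7 days (limma adjusted p = 0.00756), with wires at 5.23 to 6.47 and salt at -3.69 to 0.87 at EC20, and overlapping levels of 2.15 to 3.81 and -0.34 to 2.83 at EC50. Its lowest value, on replicate 3 of salt EC20, was not well above background, and without that array the difference was 3.83 ± 0.91 (limma adjusted p = 0.0479). CUST_50327_PI427420766_b had 1.04 ± 0.49 (limma adjusted p = 0.204), and its change of -2.42 ± 0.69 was called (limma adjusted p = 0.0388). The 2 lower probes were at 0.10 ± 1.07 and 0.08 ± 0.97, with adjusted p of 0.0913 and 0.0776 for their changes in limma. The counts at 7 days and of the change moved widely when 1 array was left out, from 60 to 1012 and from 109 to 2899.

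The levels of the called probes were followed through all 18 groups. The median level of the 1972 higher probes was 1.23 ± 0.39 (SD, n = 3) with wires EC20 and 1.40 ± 0.23 with wires EC50 at 3 days, and 0.21 ± 0.17 and 0.22 ± 0.12 with salt EC20 and EC50. These values restate the choice of the probes. The other groups were not in the contrast and entered the choice only through the filter and the shared estimate of spread. Among them at 3 days, the control was at 0.38 ± 0.25. For EC20 and EC50 the nanoparticles (Cu-NPs) were at 0.57 ± 0.46 and 0.70 ± 0.28. Soil with an old copper contamination (Cu-Field) was at 1.29 ± 0.35 and 0.96 ± 0.31. The 3842 lower probes gave the reverse order, with -0.69 ± 0.17 in the control, -0.77 ± 0.39 and -0.88 ± 0.15 with nanoparticles and -1.56 ± 0.16 and -1.27 ± 0.21 in field soil. The field soil thus lay near the wires for both lists, and the control near the salt.

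At 7 days most groups lay near the level of the wires at 3 days, the salt EC50 included, where the higher list was at 1.37 ± 0.17 and the lower list at -1.49 ± 0.10. Nanoparticles EC20 were lower in the higher list, at 0.56 ± 0.39. The salt EC20 was split. Its replicate 2 had 1.40 in the higher list, whereas replicates 1 and 3 had 0.06 and 0.19, as low as the salt at 3 days. The control at 7 days was split too, with 1.47 and 1.58 on replicates 1 and 2 and 0.25 on replicate 3. In the lower list these 3 arrays were at -1.51, -1.65 and -0.76. Measures of the whole array moved with the split of the control. For the salt EC20 the median and the interquartile range did not set replicate 2 clearly apart. The array median relative to the spike-ins did. The median log2 signal before scaling was 6.84 and 6.84 on replicates 1 and 2 of the control at 7 days and 5.57 on replicate 3, and their interquartile ranges were 3.86, 4.04 and 3.72. For the salt EC20 at 7 days the medians were 6.55, 6.74 and 5.17 and the interquartile ranges 3.94, 4.10 and 4.05. Relative to the spike-ins the array medians of these replicates 1, 2 and 3 were -7.37, -5.57 and -7.90. Those of the control at 7 days were -6.35, -5.70 and -7.62. The part of these measures in the splits was not tested.

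**Figure D4:**
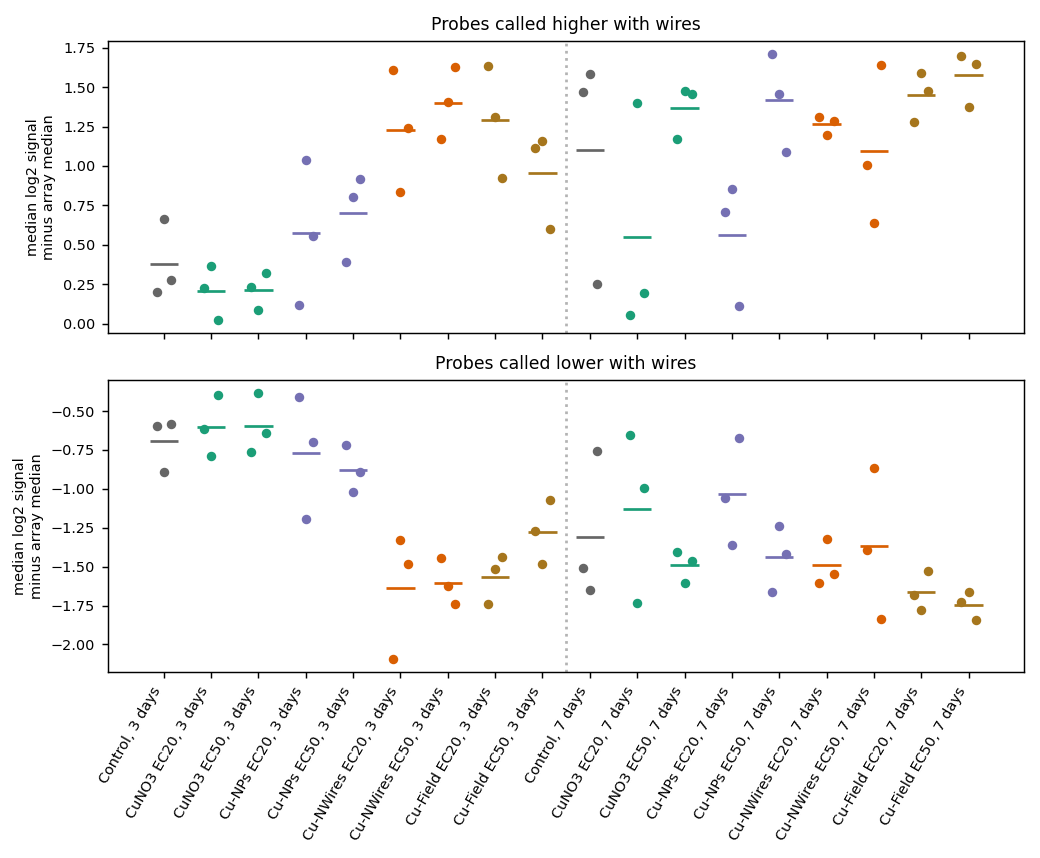
Median log2 signal minus array median of the 1972 probes called higher (upper panel) and the 3842 called lower (lower panel) with wires at 3 days, for each of the 54 arrays (points) in 18 groups, with group means as bars and the dotted line between 3 and 7 days. Field soil at 3 days and most groups at 7 days lie near the wires at 3 days, and the control at 3 days lies near the salt.

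The time course of unexposed worms was set against the difference of the forms, in a comparison chosen after these levels were seen. It shares no arrays with the comparison of wires and salt, although replicate 2 of the control at 7 days lay on a slide with arrays of both forms. Control worms at 7 days differed from those at 3 days in 609 probes (3.12%), 359 higher and 250 lower (3897 and 105 after SVCD, 6474 and 9 with spike-ins). Of the 359 rising probes, 222 (61.8%) were among the 1972 higher with wires, of which they were 11.3%, compared with 1.84% of all probes that rose. Of the 250 falling probes, 156 (62.4%) were among the 3842 lower with wires, of which they were 4.06%, compared with 1.28% of all probes that fell. No probe was called in opposite directions (0 probes). Under the other 7 scalings 0 to 7 were. Of the rising probes 35.6% to 97.6% were among those higher with wires, and of the falling probes 19.0% to 77.8% were among those lower. These shares depend on the length of the lists. After SVCD, with the 97.6%, 12332 of all 19499 probes were higher with wires, and with spike-ins, with the 35.6%, 3563 were. The probes lower with wires numbered 307 after SVCD (19.0%) and 330 with spike-ins (77.8% of 9 falling probes). The median change with time in the control was 0.66 for the higher list, -0.59 for the lower list and -0.07 for all probes. The correlation of the 2 differences across probes was 0.714 (Spearman 0.674), and the subtraction of any constant from an array leaves the former value as it is. After quantile normalization it was 0.706.

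This likeness rested on 2 of the 3 control arrays at 7 days. Taken singly against the mean of the control at 3 days, replicates 1 and 2 had correlations of 0.784 and 0.782 with the difference of the forms, and replicate 3 had -0.07. Replicate 3 lay on the same slide as replicate 3 of the control at 3 days, and the part of the slide was not tested. Without replicate 3 the correlation was 0.818, without replicate 2 it was 0.531 and without replicate 1 it was 0.601. Leaving out any array of wires or salt gave values between 0.683 and 0.731. The count of 609 was 87, 140 and 1868 without replicates 1, 2 and 3 of the control at 7 days, and 90, 342 and 206 without those of the control at 3 days. The 276 probes described above had median levels of 0.65, 1.05 and 4.14 on the 3 control arrays at 7 days, so that the first 2 lay among or below the wires at 3 days and the third among the salt.

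**Figure D5:**
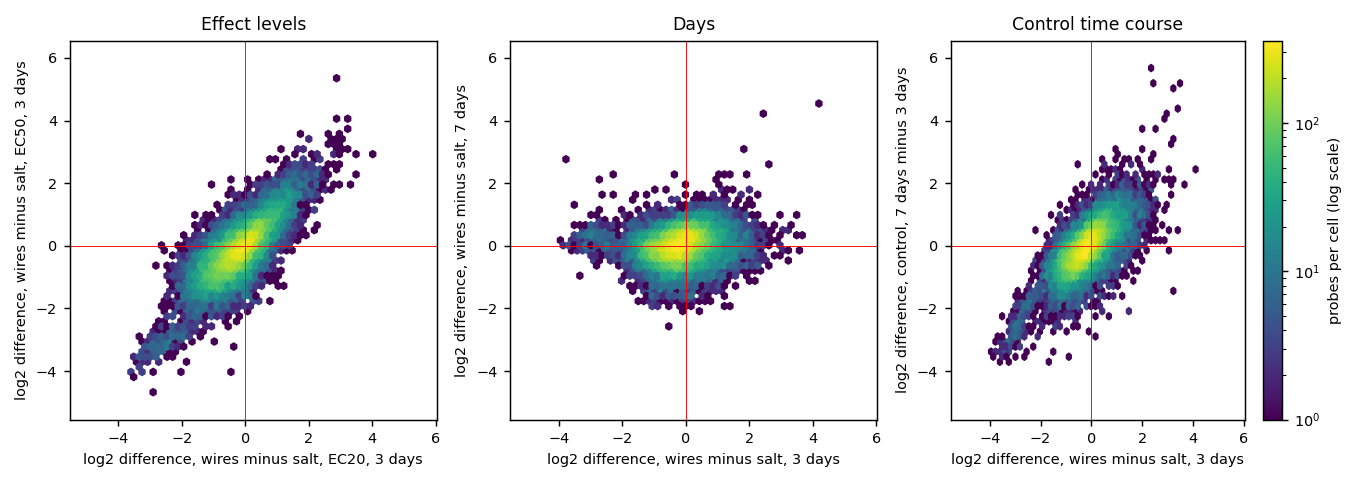
Log2 differences of 19499 probes as densities (colour, probes in each cell on a log scale), for EC50 against EC20 (left, Pearson correlation 0.791), 7 days against 3 days (middle, 0.16) and the control at 7 minus 3 days against wires minus salt at 3 days (right, 0.714). The left and right clouds run along the diagonal, with a separate group of probes at the lower end, and the middle cloud is nearly round.

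Slide and scan day were examined as batches. The 12 arrays lay on 8 slides, and 3 of these held 1 wire and 1 salt array. On these slides the wire array minus the salt array had a median difference of 1.04 (wires EC20 replicate 1 and salt EC50 replicate 1), 0.56 (replicate 2 and replicate 1 of EC20) and 1.05 (replicate 3 of both at EC20) over the 1972 higher probes. Over the 3842 lower probes the values were -1.30, -0.67 and -1.04. The lists were chosen on these arrays too, so the values describe them. With the slide as a random block 6651 probes were called, and with the slide as a term 5402. Scan day 1 held 2 wire and 3 salt arrays, all wires EC50 were scanned on day 2, and with the scan day as a term 5857 probes were called. Both wire arrays of scan day 1 and 1 of its salt arrays were at EC20. With the effect level in the model, the forms were compared there only on these 2 wire arrays and this 1 salt array. No count is therefore given for scan day 1, where the median difference over all probes was -0.16. Within scan day 2 limma called 1076 probes, 588 higher and 488 lower.

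The flag for a signal well above background was then compared between forms. Among all 43750 non-control probes, 37 were well above background on all 6 wire arrays and on no salt array, and 43 on all 6 salt arrays and no wire array. Most of these had not entered the tests, with 2 and 12 among the 19499 probes. The wires were at least 1.16-fold to at least 11.9-fold higher for the 37 probes (median at least 2.23-fold), and the salt at least 1.85-fold to at least 3.21-fold higher for the 43 (median at least 2.44-fold). These bounds compare the brighter form with the lowest signal that counted as well above background on each array, or with the dim probe's own signal if that was higher. They were taken after subtraction of the array median and hold for that scaling only. A scaling that raises the wires relative to the salt, as SVCD did, would raise the bounds of the wires and lower those of the salt. By the weaker flag of a signal positive and significant against the background, 4 probes were found on all wire arrays and no salt array, and 21 the other way. At 7 days 6 of the 37 probes were well above background on all 6 wire arrays, and 0 of the 43 on all 6 salt arrays. The probes well above background on all arrays of a form numbered 17281 with wires and 17221 with salt.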

How the data were processed

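RNA of pooled worms was labelled with 1 dye (Cy3) and hybridized to custom Agilent arrays, 1 for each of 54 samples in 18 groups taken from the sample titles. The processed signals deposited by the authors are intensity values on a linear scale, extracted and background-corrected with Agilent Feature Extraction (10.7.3.1 per the file headers), with no normalization between arrays. The value table deposited by the authors holds the same intensity values, rounded (ratio 0.995 to 1.005). Columns of samples outside the series numbered 0. The processed signal was positive for every probe (lowest 1.2), while 3261 to 10854 background-subtracted signals of an array were not, so the lowest processed values are not measured differences from the background.

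Signals were transformed to log2 and the array median of the 19499 tested probes was subtracted. A model with 1 mean for each group was fitted to all 54 arrays with limma 3.58.1 in R 4.3.3, with data.table (version 1.17.8) for input, with Benjamini-Hochberg adjustment over 19499 probes and a threshold of 0.05. The steps were tested on simulated data. Array measures used exact permutation tests. The named probes are the first 2 higher and first 2 lower by absolute difference among called probes whose wire and salt arrays did not overlap. Members, lists and tests were chosen with earlier results of these data known. Spike-in scaling used the 7 of 10 E1A probes above background and unsaturated on all arrays. The normexp alternative used median spot signals in place of the planned mean signals, which were not available. A planned comparison of probes sharing a contig was void because none do. Other alternatives were other scalings, filters and tests, batches and leaving out each array.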

Additional observations from a re-analysis of the deposited data

Results flagged for a closer look

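Probe CUST_24211_PI427420766_b had 1 wire array far from the others at 3 days. Replicate 2 of wires EC20 was at 1.77 and the nearest of the other 5 wire arrays at 4.52, so the gap was 0.722 of the range of the 6. Of 20 sets of 6 arrays examined in this way 1 stood out, and chance alone gives about 1 in 20. The difference of the forms without that array was 4.63. The same array was the lowest of the wires in the list of 1972 higher probes, at 0.83 compared with 1.17 to 1.63.

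The difference between wires and salt changed from 3 to 7 days for 897 probes by the interaction of form and day in limma, and for the named probe CUST_50327_PI427420766_b the change was -2.42 (limma adjusted p = 0.0388). The count of 897 was between 109 and 2899 when 1 array was left out.

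Of the 37 probes well above background on all wire arrays and no salt array at 3 days, most of which had not entered the tests, 5 were also well above background on none of the 3 control arrays. Of the 43 probes of the opposite kind, 3 were well above background on no control array and 8 on all 3.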

How the results depend on the processing

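The direction of the difference of the 4 named probes was the same under all alternatives that gave a value. Where arrays were left out, this was set by the choice of probes without overlap on these arrays. For the scalings it was largely set by the choice of the largest differences, which exceeded the offsets between scalings. It is therefore no separate support. Their calls were lost in the 6 arrays of slides with both forms and, for the 2 lower probes, within scan day 2. Calls within scan day 1 are not given. Most other counts moved, and the cause was not tested. The count for wires minus salt at 3 days (5814) was 3864 without scaling, 12639 after SVCD, 12252 after MedianCD, 3798 after normexp correction (offset 50), 3720 for probes well above background on all 54 arrays (fewer probes tested), 0 and 1076 within scan days 1 and 2 (5 and 7 arrays), and 3593 to 6395 when 1 array was left out. Added after seeing the data, it was 3233 without the 2 dimmest signal classes and 0 on the 6 arrays of slides with both forms. In the latter fit 4019 probes had an unadjusted p under 0.05 in limma. That fit had no slide term. With the effect level in the model, it compared 3 wire arrays with 2 salt arrays, all at EC20. The methods' t-test called 8278 probes unadjusted and 5589 after adjustment. The percentage of calls higher (33.9%) was 77.0% without scaling, 30.9% with the 75th percentile, 49.6% after quantile, 97.6% after SVCD, 67.6% from median offsets, 97.8% after MedianCD, 91.5% with spike-ins, 35.9% after normexp, 38.0% with the filter on the 12 arrays, 23.3% with no filter, 36.1% on the 12 arrays alone, 36.6% and 36.7% in the t-test unadjusted and adjusted, 32.2% with slide as a term, 54.6% within scan day 2, 41.0% without the 2 dimmest classes and 30.8% to 34.4% with 1 array left out.

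After quantile, SVCD and spike-in scaling the calls were 45, 9340 and 0 at EC20 and 1236, 9925 and 2 at EC50. SVCD and spike-in scaling gave 1387 and 409 at 7 days, 8156 and 1972 for the change with day, and 4002 and 6483 for the control with time. Wires minus control had 9705 after SVCD, and salt minus control 21 after quantile and 5 after SVCD. With 1 array left out the ranges were 0 to 1303 (EC20), 34 to 1470 (EC50), 0 to 1 (form by level, 1 without salt EC20 replicate 3), 60 to 1012 (7 days), 109 to 2899 (change with day), 1490 to 3978 (wires minus control), 0 to 12 (salt minus control) and 87 to 1868 (control with time). At 7 days the count was 1012, 68, 60 and 328 without salt EC20 replicates 2 and 3 and salt EC50 replicates 1 and 3, and 164, 391, 176, 423 and 164 without wires EC20 replicates 1, 2 and 3 and wires EC50 replicates 1 and 2. The change with day had 201 and 243 without salt EC20 replicate 3 and EC50 replicate 2 at 3 days, 141, 2030, 1797, 133 and 384 without wires EC20 replicates 1 and 2 and wires EC50 replicates 1, 2 and 3 at 3 days, and 2899, 147, 416, 499, 403, 483, 109 and 2754 without salt EC20 replicates 1 and 2, salt EC50 replicates 1 and 2, wires EC20 replicates 2 and 3 and wires EC50 replicates 2 and 3 at 7 days. Salt minus control had 8 calls without control replicate 2, and 4, 1, 12 and 5 without salt EC20 replicates 1 and 2 and salt EC50 replicates 2 and 3.

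Replicate numbers did not pair the arrays. Deviations of the 6 wire and salt arrays with the same number and level correlated from -0.19 to 0.18, above 0.1 for 1 pair. With the replicate number as a block 5450 probes were called, 35.4% of them higher, compared with 6095 on the same 12 arrays without the block.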
